A study of Homo sapiens with 6 samples.

Results

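The genes described here are the AP-1 subunits FOS, FOSB, FOSL1, FOSL2, JUN, JUNB and JUND and 3 further genes of the immediate early response, EGR1, IER3 and MYC. They were taken by gene symbol from the deposited expression table, where all 10 were found among 50867 genes with values. The cells were UM-UC-3 and 5637, established human bladder cancer lines, infected with lentivirus and kept in puromycin for 2 weeks so that each culture expressed its hairpin stably, and their mRNA was sequenced. UM-UC-3 was grown in DMEM and 5637 in RPMI 1640, both with fetal bovine serum, so medium and line cannot be told apart. Each line gave 3 libraries, 1 with the control hairpin sh-NC and 1 for either hairpin against the long noncoding RNA LNMAT1, named sh-LNMAT1#1 and, for the second, sh-LNMAT1#2. The values are FPKM, fragments scaled to the length of the gene and the depth of the library, and they can be compared between genes. With 1 library per construct and line, single libraries could be compared by value and not by a test. In such bulk RNA, fewer cells of a type and less RNA per cell cannot be told apart.

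AP-1 is a family of dimers in which a FOS protein pairs with a JUN protein, or JUN proteins pair with each other, through leucine zippers, and the basic region beside the zipper binds DNA. Several of these genes are transcribed within minutes of growth factor or stress signals, without new protein synthesis, through serum response factor with its ternary complex partners and through CREB and ATF factors, and MAP kinases both drive their transcription and phosphorylate the products. Their mRNAs are mostly short-lived, so their levels are known to follow serum, cell density and handling closely. In carcinoma cells the composition of AP-1 differs between epithelial and mesenchymal states, and FOSL1 with JUN is known as a mesenchymal, invasion-associated pair.

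The target of the hairpins is listed as LINC01296 (ENSG00000244306), and its FPKM in UM-UC-3 was 14.2 under sh-NC, 6.20 under sh-LNMAT1#1 and 6.70 under sh-LNMAT1#2. Under the 5637 label it was 11.7 for sh-NC, 4.70 for sh-LNMAT1#1 and 2.14 for sh-LNMAT1#2, so the target was lower in each sh-LNMAT1 library than in the sh-NC library of the same label. In other respects the library labelled 5637 sh-NC went against its label. The 12716 genes that averaged 1 FPKM or more over the 6 libraries gave it a Pearson r, on log2(FPKM + 0.5), of 0.985 to UM-UC-3 sh-LNMAT1#1 and of 0.923 and 0.934 to the other UM-UC-3 libraries, but of 0.617 and 0.622 to the 5637 sh-LNMAT1 pair. These r are across genes, which are not independent replicates. The epithelial cadherin CDH1 was 19.2 and 14.1 FPKM in the 5637 sh-LNMAT1 libraries, at most 0.00931 FPKM in the UM-UC-3 libraries and 0.00924 FPKM in the library labelled 5637 sh-NC. Test results that use this library are therefore given with and without it where a value without it exists, and it is named by its label only.

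Markers fixed for the cell types that could be present separated the libraries the same way. The 10 epithelial markers, of which KRT19 was the most abundant, summed to 777 FPKM in 5637 sh-LNMAT1#1 and 1055 in 5637 sh-LNMAT1#2. In UM-UC-3 they summed to 24.9 FPKM with sh-NC, 21.4 with sh-LNMAT1#1 and 31.0 with sh-LNMAT1#2, and in the library labelled 5637 sh-NC to 26.9. The mesenchymal regulator ZEB1 was between 8.67 and 12.7 FPKM in the UM-UC-3 libraries, 12.6 in the library labelled 5637 sh-NC, and 0.0264 and 0.00774 in the 5637 sh-LNMAT1 libraries. The 6 mesenchymal markers, led by VIM, summed to 399, 182.5 and 228 FPKM in UM-UC-3 under sh-NC, the first and the second hairpin, to 164 in the library labelled 5637 sh-NC, and to 122 and 119 in the 5637 sh-LNMAT1 pair, where FN1 made up most of the sum. FN1 went against the other mesenchymal markers. It was 0.816, 2.27 and 1.07 FPKM in UM-UC-3 in the same order and 0.884 in the library labelled 5637 sh-NC. In the 5637 sh-LNMAT1 pair FN1 was far higher, at 110 and 102 FPKM. Uroplakins, which define the differentiated urothelium, reached at most 0.556 FPKM in any library, for UPK2, and UPK1B was listed at 0 throughout. The 7 urothelial markers, led by PPARG, summed to 1.57 to 4.91 FPKM in UM-UC-3, 3.47 in the library labelled 5637 sh-NC and 34.7 and 36.4 in the 5637 sh-LNMAT1 pair. Defining markers of other cells were at or near 0, with PTPRC at most 0.0108 FPKM, CD3E listed at 0, VWF at most 0.141 FPKM and DCN at most 0.0262 FPKM. The 5 leukocyte markers summed to at most 31.1 FPKM, nearly all CD68, the 3 endothelial markers, led by PECAM1, to at most 0.284 and the 4 fibroblast markers, led by COL1A1, to at most 8.33.

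In genes with a single exon, FPKM times exon length came out as whole multiples of 1 fragment, which gave depths from 19375000 fragments in 5637 sh-LNMAT1#2 to 24707000 in UM-UC-3 sh-NC. JUN and JUNB are such genes. JUN rested on 2950 to 46985 fragments per library and JUNB on 1604 to 3224, so counting error was small for both. FOS and FOSB were read from few fragments. Counted over all annotated exons, FOS rested on at most 101 fragments in any library and FOSB on at most 162, and in 5637 sh-LNMAT1#1 the numbers were at most 20.6 and 13.8. Such numbers cover counting error only.

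FOS and FOSB, the classical serum-induced subunits, were the lowest of the 10 genes in every library. FOS (ENSG00000170345), which lies on chromosome 14 from 75278774 to 75282230 in GRCh38, measured 0.565 FPKM under sh-NC, 1.40 under sh-LNMAT1#1 and 0.699 under sh-LNMAT1#2 in UM-UC-3. The library labelled 5637 sh-NC gave it 1.05 FPKM, and its values were 0.306 and 0.386 under the first and the second hairpin in 5637. Neither 5637 sh-LNMAT1 library reached the lowest UM-UC-3 library. FOSB (ENSG00000125740), on chromosome 19 from 45467995 to 45475179, measured 0.189, 1.12 and 0.164 FPKM in the same order in UM-UC-3, 1.30 in the library labelled 5637 sh-NC, and 0.119 and 0.159 with the hairpins in 5637. Its level thus stood apart under sh-LNMAT1#1 in UM-UC-3 and in the library labelled 5637 sh-NC, while the other UM-UC-3 libraries were close to those of 5637. FOS was highest in the same pair of libraries. The means of both genes over the 6 libraries, 0.735 and 0.508 FPKM, fell under the limit of 1 FPKM, so neither entered the tests.

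FOSL1 and FOSL2, which encode the Fos-related antigens FRA-1 and FRA-2 and lack the strong activation domain of FOS, made up nearly all FOS family mRNA. FOSL1 (ENSG00000175592), on chromosome 11 from 65892049 to 65900573, had a level in UM-UC-3 of 65.3 FPKM under sh-NC, 111 under sh-LNMAT1#1 and 52.6 under sh-LNMAT1#2. The library labelled 5637 sh-NC gave 124 FPKM for it, and the hairpins in 5637 gave 20.8 and 23.5. The 5637 sh-LNMAT1 libraries lay below all others and close to each other. FOSL2 (ENSG00000075426), on chromosome 2 from 28392448 to 28417312, had levels of 33.6, 24.2 and 39.5 FPKM in that order in UM-UC-3, 28.1 in the library labelled 5637 sh-NC, and 20.5 and 23.0 with the hairpins in 5637. FOSL2 was the steadier gene within UM-UC-3, with a highest level 1.63 times its lowest, compared with 2.10 times for FOSL1.

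JUN, the AP-1 subunit with the strongest activation domain of its family and a substrate of JNK, was the most abundant of the 10 genes in the 3 UM-UC-3 libraries and in the library labelled 5637 sh-NC. JUN (ENSG00000177606), on chromosome 1 from 58780788 to 58784327, reached 239 FPKM under sh-NC, 473 under sh-LNMAT1#1 and 289 under sh-LNMAT1#2 in UM-UC-3, and 592 FPKM in the library labelled 5637 sh-NC. Under the first and the second hairpin in 5637 it was 50.5 and 43.0 FPKM. The exact Poisson 95% interval was 236 to 243 FPKM for UM-UC-3 sh-NC and 41.5 to 44.6 FPKM for 5637 sh-LNMAT1#2, so counting error was far smaller than the differences between libraries. Ranked among the 12716 genes, JUN stood between place 35 and place 80 in the 4 libraries where it led, and at 475 and 594 in the 5637 sh-LNMAT1 libraries.

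JUNB, a weaker activator that can restrain JUN, did not separate the lines. JUNB (ENSG00000171223), on chromosome 19 from 12791496 to 12793315, reached 69.0, 47.6 and 77.2 FPKM in UM-UC-3 under sh-NC and the first and the second hairpin, 46.1 in the library labelled 5637 sh-NC, and 42.4 and 67.5 with the hairpins in 5637. Its groups overlapped, and sh-LNMAT1#2 gave a higher level than sh-LNMAT1#1 in either line. JUND, the subunit usually found in resting cells, followed JUN in part. JUND (ENSG00000130522), on chromosome 19 from 18279760 to 18281622, reached 31.96, 57.2 and 51.7 FPKM in UM-UC-3 in the same order, 46.4 in the library labelled 5637 sh-NC, and 19.0 and 16.1 with the hairpins in 5637. Both 5637 sh-LNMAT1 values lay below the lowest of the others.

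**Figure D1:**
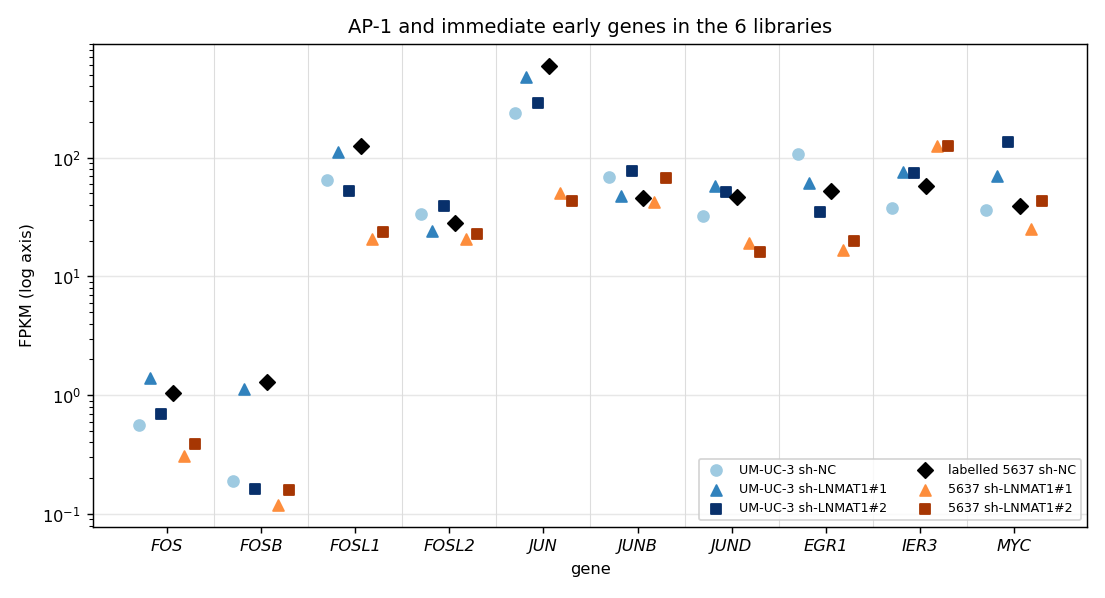
Level of each of the 10 genes in each library, in FPKM on a log axis, with 1 point per library and no error bars because each construct was sequenced once per line. JUN ran from 43.0 to 592 FPKM, with the 5637 sh-LNMAT1 libraries at the bottom, while IER3 was highest in those libraries and FOS and FOSB stayed at or under 1.40 FPKM.

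The makeup of both families differed between the libraries. JUN accounted for 70.3% of the summed JUN family FPKM under sh-NC in UM-UC-3, 81.9% and 69.2% under the hairpins there and 86.5% in the library labelled 5637 sh-NC, but for 45.1% and 34.0% in the 5637 sh-LNMAT1 libraries. JUNB took 37.9% and 53.3% there and was the most abundant JUN family gene in 5637 sh-LNMAT1#2. Within the FOS family, FOSL1 held 65.5%, 80.5% and 56.6% in UM-UC-3 under sh-NC and the hairpins, and 80.3% in the library labelled 5637 sh-NC. In 5637 it was level with FOSL2, at 49.9% and 49.1% of the sum with sh-LNMAT1#1 and 50% and 48.9% with sh-LNMAT1#2. FOS and FOSB each contributed at most 1.02%. Summed JUN family mRNA exceeded summed FOS family mRNA in every library, by 2.67 and 2.69 times in the 5637 sh-LNMAT1 libraries and by 3.41 to 4.50 times in the others. These shares describe mRNA, and protein was not measured.

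**Figure D2:**
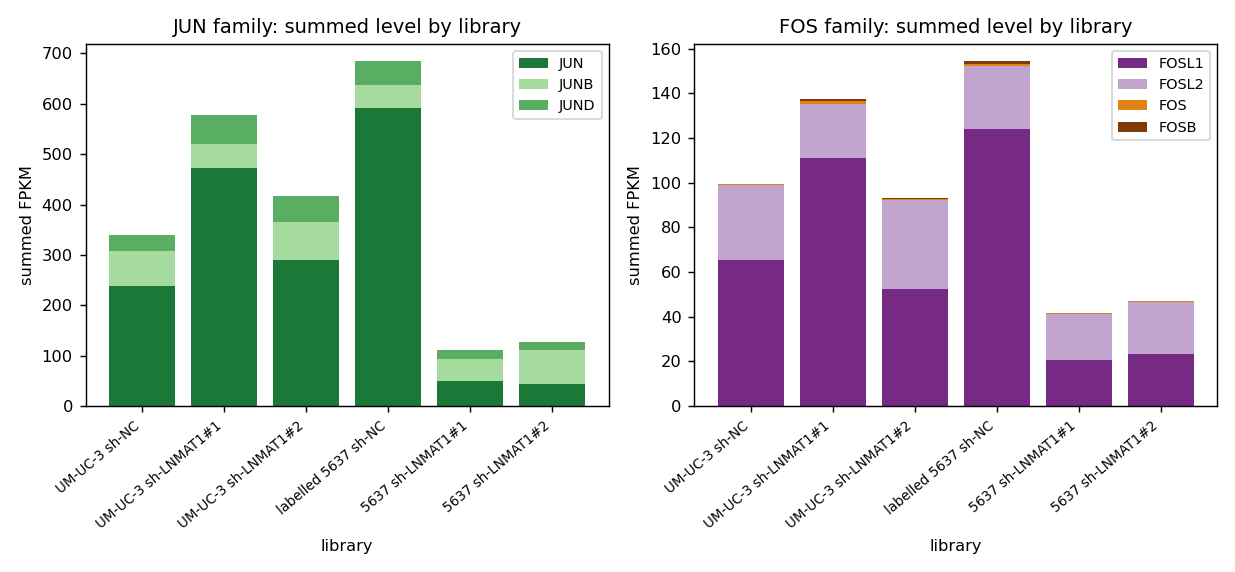
Summed FPKM of the JUN family on the left and of the FOS family on the right, 1 bar per library, split by gene. The JUN family sum was 112 and 127 FPKM in the 5637 sh-LNMAT1 libraries and between 340 and 684 FPKM in the other 4, and the FOS family sum was 41.8 and 47.0 FPKM against 92.9 to 155.

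EGR1, a zinc finger activator that binds GC-rich promoters and is switched on by ERK through serum response factor, was highest in the UM-UC-3 control. EGR1 (ENSG00000120738), on chromosome 5 from 138465490 to 138469315, stood at 107 FPKM under sh-NC, 61.3 under sh-LNMAT1#1 and 34.8 under sh-LNMAT1#2 in UM-UC-3. The library labelled 5637 sh-NC held 52.0 FPKM, and the first and the second hairpin in 5637 had 16.7 and 19.9. Within UM-UC-3 it thus went opposite to FOS, which was lowest in sh-NC. In either set of 3 libraries with the same line label, the sh-NC library was the highest. EGR2, EGR3 and EGR4, its relatives, were listed under 1 FPKM in all 6 libraries. EGR3 reached 0.723 FPKM under sh-LNMAT1#1 in UM-UC-3 and again in the library labelled 5637 sh-NC, was 0.195 and 0.349 in the other UM-UC-3 libraries, and was at most 0.0170 in the 5637 sh-LNMAT1 libraries.

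IER3, an early response gene induced by NF-kB and ERK signals and linked to survival under stress, was higher in 5637 where JUN, JUND and FOSL1 were lower, while within UM-UC-3 it was higher under both hairpins, as JUN and JUND were. IER3 (ENSG00000137331), on chromosome 6 from 30743199 to 30744554, stood at 37.8 FPKM under sh-NC, 76.0 under sh-LNMAT1#1 and 74.1 under sh-LNMAT1#2 in UM-UC-3. The library labelled 5637 sh-NC held 57.2 FPKM, and the hairpins in 5637 had 124 and 125. The hairpins gave nearly equal levels in either line, and IER3 was the most abundant of the 10 genes in both 5637 sh-LNMAT1 libraries. MYC, a bHLH factor that drives growth and ribosome synthesis with its partner MAX, was highest under the second hairpin in UM-UC-3. MYC (ENSG00000136997), on chromosome 8 from 127735434 to 127741434, stood at 35.9, 70.2 and 137 FPKM in UM-UC-3 in the same order, 39.4 in the library labelled 5637 sh-NC, and 24.99 and 43.0 with the hairpins in 5637. The lines overlapped once UM-UC-3 sh-NC was counted.

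By mean level over the 3 UM-UC-3 libraries the order was JUN, MYC, FOSL1, EGR1, JUNB, IER3, JUND, FOSL2, FOS and FOSB. JUN stood clear above MYC and FOSL2 clear above FOS, while every other pair of neighbours overlapped between libraries. Over the pair of 5637 sh-LNMAT1 libraries the order was IER3, JUNB, JUN, MYC, FOSL1, FOSL2, EGR1, JUND, FOS and FOSB. There JUNB overlapped JUN, JUN overlapped MYC, FOSL1 overlapped FOSL2 and EGR1 overlapped JUND.

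Upstream sequences are shown for 4 of the genes that share a short motif there, because immediate early promoters are known for short binding sites of CREB, ATF and serum response factors near the start. The RefSeq promoter table for GRCh38.p14 held 7 of the 10 genes, and FOSL1, IER3 and MYC had no entry. In the 250 bases before the start, both strands were searched for the AP-1 site TGANTCA, the cyclic AMP response element TGACGTCA, its core TGACGT (which lies within the longer element and was added after the sequences were seen), the CArG box of serum response factor, the EGR site GCGGGGGCG and the E-box CACGTG. Each stretch below runs 5′ to 3′ on the strand of the gene, with TGACGT or its reverse complement in capitals, and covers 46 bases from 100 to 55 before the end of the 250-base window, where RefSeq has its start. FOS is on the plus strand at chr14:75278728-75278773, FOSB on the plus strand at chr19:45467896-45467941, EGR1 on the plus strand at chr5:138465379-138465424 and JUND on the minus strand at chr19:18281677-18281722.
FOS: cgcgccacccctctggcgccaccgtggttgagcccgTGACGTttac
FOSB: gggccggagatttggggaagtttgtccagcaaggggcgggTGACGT
EGR1: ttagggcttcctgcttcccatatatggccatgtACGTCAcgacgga
JUND: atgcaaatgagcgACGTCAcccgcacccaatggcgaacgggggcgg

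The core TGACGT was present in 5 of the 7 promoters (FOS, FOSB, FOSL2, JUND and EGR1) and in 7.10% of all 35116 promoter windows of that length. It began 64 bases before the start in FOS, 60 in FOSB, 66 in FOSL2, 67 in EGR1 and 87 in JUND, with further matches in EGR1 and JUND. JUN and JUNB held no match in this window, which says nothing of the factors. The windows follow the RefSeq start, and in the GENCODE annotation all 250 bases of the JUN window, 54 of the FOS window, 35 of that of FOSL2 and 1 of that of FOSB lie in exons of the gene itself. The whole element TGACGTCA was found in JUND alone of the 7, at 1.65% of all windows, and the CArG box in EGR1 alone, which held 2, at 1.16% of all windows. The AP-1 site, found in 6.57% of windows, the EGR site, in 4.72%, and the E-box, in 6.34%, were in none of the 7. Bases further upstream were not searched, so the absence of any of these motifs holds for the windows only. The 250 bases of EGR1 (chr5:138465229-138465478, plus strand) and JUND (chr19:18281623-18281872, minus strand) are printed whole, since they held the CArG boxes and the full element, with every match in capitals. Neither stretch lies in an annotated exon of its gene, nor do the shorter stretches shown.
EGR1 upstream: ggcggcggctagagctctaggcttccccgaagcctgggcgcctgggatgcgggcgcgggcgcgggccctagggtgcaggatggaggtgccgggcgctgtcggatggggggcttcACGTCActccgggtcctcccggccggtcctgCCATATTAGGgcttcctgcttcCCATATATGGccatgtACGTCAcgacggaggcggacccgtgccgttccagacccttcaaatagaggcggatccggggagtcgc
JUND upstream: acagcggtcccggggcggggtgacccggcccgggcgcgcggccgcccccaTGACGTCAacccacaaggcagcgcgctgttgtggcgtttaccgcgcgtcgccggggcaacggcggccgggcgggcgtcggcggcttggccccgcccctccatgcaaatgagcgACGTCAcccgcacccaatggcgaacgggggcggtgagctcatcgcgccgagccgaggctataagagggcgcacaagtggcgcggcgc

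How the lines differ was tested on the 4 sh-LNMAT1 libraries, 5637 minus UM-UC-3, which leaves out both sh-NC libraries. JUN was 7.87-fold lower in 5637, FOSL1 3.39-fold, JUND 3.06-fold, MYC 2.96-fold and EGR1 2.498-fold lower, and IER3 was 1.66-fold higher. Of the 8 genes tested, 5 passed in the lower direction, beside 19.1% of all 12716 genes, and 1 in the higher direction, beside 18.5% (37.6% in either). Folds are on the scale of log2(FPKM + 0.5), n = 2 libraries per line. JUN had a log2 difference of -2.98 (standard error 0.29, limma adjusted p 0.0014) and JUND of -1.61 (standard error 0.20, adjusted p 0.0032). The adjusted p from limma was 0.018 for FOSL1 (-1.76, standard error 0.37), 0.026 for EGR1 (-1.32, standard error 0.32), 0.027 for IER3 (0.73, standard error 0.18) and 0.035 for MYC (-1.56, standard error 0.41). FOSL2 and JUNB did not pass. Their log2 differences were -0.50 (95% interval -1.21 to 0.21) and -0.18 (-1.04 to 0.68), so a difference of over 2-fold lower remains possible for either.

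Leaving out 5637 sh-LNMAT1#1 left JUN as the single gene of the 8 tested with an adjusted p under 0.05, where 781 genes of the whole table were higher and 467 lower in place of 2349 and 2430. The differences were then -3.09 for JUN, -1.73 for JUND, -1.68 for FOSL1 and 0.73 for IER3. Leaving out 5637 sh-LNMAT1#2 left none of the 8, with JUN at -2.86 and an adjusted p of 0.051, where 794 genes were higher and 464 lower. Without UM-UC-3 sh-LNMAT1#2, the MYC difference was -1.09 with an adjusted p of 0.112, and with UM-UC-3 sh-NC added it was -1.09 with an adjusted p of 0.158. When all 6 libraries were grouped by their labels, which places the library labelled 5637 sh-NC with 5637, none of the 8 tested genes passed, beside 1 gene higher and 1 lower in the whole table, and the JUN difference was -1.55. Without UM-UC-3 sh-LNMAT1#1, FOSL2 passed as well (-0.85, adjusted p 0.032), and with no filter on low genes the calls of FOSL1, EGR1 and MYC were lost, leaving JUN, JUND and IER3. An exact permutation of 2 against 2 libraries cannot give a two-sided p below 0.333, so the calls rest on the spread that limma shares across genes. Most markers of epithelial and mesenchymal state given above moved with this difference, while the mesenchymal marker FN1 was higher in 5637. The part of these markers in the difference was not tested.

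Set against all 3 UM-UC-3 libraries, the 5637 sh-LNMAT1 libraries did not overlap them for JUN, FOSL1, FOSL2, JUND and EGR1, each lower, and for IER3, which was higher, 5 and 1 of the 8 tested, and FOS and FOSB, which were not tested, were lower without overlap too. Such separation held for 34.5% of all genes kept in the lower direction and 31.4% in the higher. With the library labelled 5637 sh-NC counted as 5637, all 10 genes overlapped between the lines, where 8.18% of genes were lower and 6.09% higher without overlap. That library differed from UM-UC-3 sh-LNMAT1#1 by at most 0.40 in log2(FPKM + 0.5) for 9 of the genes and by -0.82 for MYC. From the mean of the 5637 sh-LNMAT1 libraries it differed by 3.65 for JUN, 2.46 for FOSL1 and -1.11 for IER3.

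The comparison for which the series was made, sh-LNMAT1 against sh-NC, was first read within UM-UC-3. The sh-LNMAT1#1 library used there is the one closest to the library labelled 5637 sh-NC (r of 0.985, while its own r to the other UM-UC-3 libraries was 0.923 and 0.933), so values for sh-LNMAT1#2 alone are given as well. At a limit of 2-fold that both hairpins had to pass on the same side of sh-NC, 0 of the 8 genes tested were higher, beside 0.967% of all genes, and 0 lower, beside 0.346%. IER3 came nearest, at 1.99-fold and 1.95-fold its sh-NC level, log2 differences of 1.00 and 0.96 for sh-LNMAT1#1 and sh-LNMAT1#2. MYC was 1.94-fold and 3.77-fold its sh-NC level, and JUND 1.78-fold and 1.61-fold. EGR1 was lower with both, at log2 differences of -0.79 and -1.60, the second a 3.04-fold decrease. With sh-LNMAT1#2 alone MYC passed the limit upward, beside 1.86% of genes, and EGR1 downward, beside 1.33%. With sh-LNMAT1#1 alone 0 of the 8 passed upward, beside 5.17% of genes, and 0 downward, beside 4.97%, with JUN at 1.98-fold. The hairpins disagreed in direction for FOSL1 (0.75 and -0.31), FOSL2 (-0.46 and 0.23) and JUNB (-0.53 and 0.16).

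In 5637 every difference rests on the library labelled sh-NC. Measured from it, JUN was 11.6-fold lower with sh-LNMAT1#1 and 13.6-fold lower with sh-LNMAT1#2, FOSL1 5.84-fold and 5.19-fold, JUND 2.41-fold and 2.83-fold and EGR1 3.06-fold and 2.58-fold lower, and IER3 was 2.16-fold and 2.17-fold higher. Thus 4 of the 8 passed the 2-fold limit downward under both hairpins, beside 14.2% of all genes, and 1 was higher, beside 15.9%. These shares are many times those of UM-UC-3. FOSL2, JUNB and MYC stayed under 2-fold with either hairpin. Each hairpin alone gave the same counts of 1 higher and 4 lower, beside 18.7% and 17.5% of all genes for sh-LNMAT1#1 and 17.5% and 17.2% for sh-LNMAT1#2. Without that library no control is left in 5637, and a knockdown difference and a difference between the lines cannot be told apart here.

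**Figure D3:**
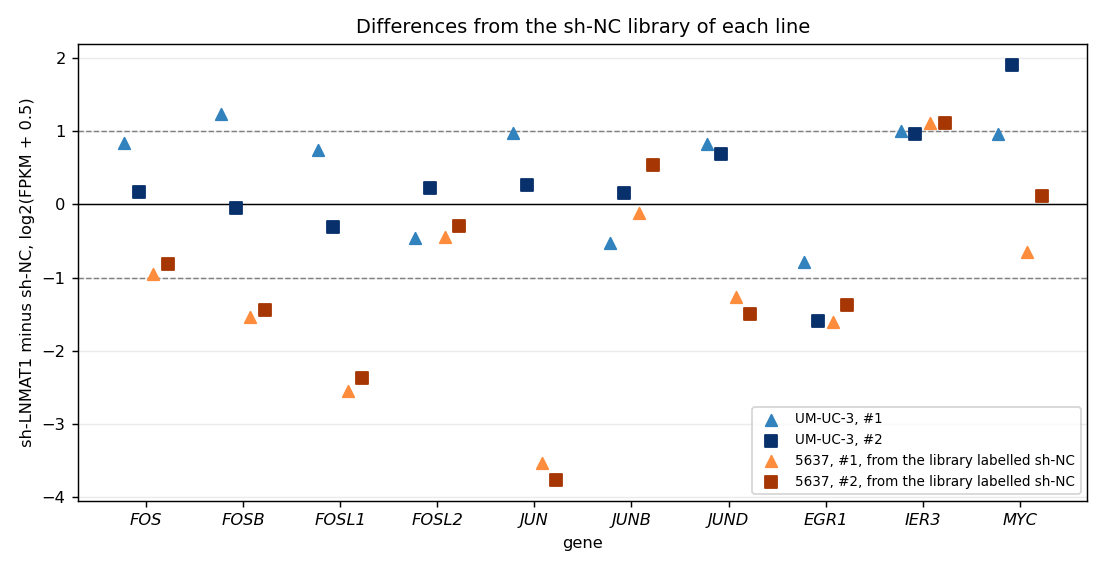
Difference of each sh-LNMAT1 library from the sh-NC library with the same line label, in log2(FPKM + 0.5), with dashed lines at 2-fold. EGR1 lay below 0 and IER3 above 0 in all 4 differences, while JUN was 0.98 and 0.27 in UM-UC-3 and -3.54 and -3.77 in 5637, where the library labelled sh-NC is the reference.

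Over both lines, with the line as a covariate, 0 of the 8 genes passed in the pooled comparison, as did 0% of all genes by limma, while 811 genes had an unadjusted p under 0.05. The log2 difference of EGR1 was -1.34 (standard error 0.31, adjusted p 0.569 by limma), lower in 4 of 4 differences, which share 1 sh-NC library per line. IER3 was at 1.05 (standard error 0.21, adjusted p 0.569 by limma), higher in 4 of 4. Without the library labelled 5637 sh-NC these were -1.20 and 0.98. In 5637 the sign of either difference is also that of the difference between the lines, and the 2 cannot be told apart. JUN behaved otherwise. Its pooled difference was -1.51 and turned to 0.63 without the library labelled 5637 sh-NC, and those of FOSL1 and JUND turned from -1.12 to 0.22 and from -0.31 to 0.76. FOSL2 was at -0.24, JUNB at 0.01 and MYC at 0.59, and without that library at -0.12, -0.18 and 1.44. Without UM-UC-3 sh-NC, which leaves the library labelled 5637 sh-NC as the only control, 5 of the 8 genes passed, EGR1, FOSL1, JUN and JUND lower and IER3 higher, and MYC turned to -0.26. Over all 12716 genes, 2028 were then higher and 1919 lower.

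Whether the knockdown difference itself differed between the lines was tested by their product term, in which the control of either line is 1 library. As the library labelled 5637 sh-NC resembled UM-UC-3, the term and the difference between the lines cannot be told apart. JUN (-4.28, standard error 0.50, adjusted p 0.006 by limma), JUND (-2.14, standard error 0.34, adjusted p 0.015) and FOSL1 (-2.68, standard error 0.65, adjusted p 0.044) passed. These 3 of 8 were all negative, where 8.79% of all genes passed with a negative term and 10% with a positive one (18.8% with either). FOSL1 lost its call with a filter of 5 FPKM and, like JUN, with no filter, which tests more genes. The term needs the library labelled 5637 sh-NC, and no value without it exists. For EGR1 the term was -0.29 (95% interval -1.65 to 1.07) and for IER3 0.14 (-0.63 to 0.90), neither of which passed.

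Genes around the 10 were read from lists of pathway genes, by the line difference among sh-LNMAT1 libraries. Among other leucine zipper partners of AP-1, 4 of 8 tested were lower in 5637 and 0 higher, beside 19.1% and 18.5% of all genes for this and each list after it, with a median log2 difference of -0.67 where all genes had -0.05. ATF3, a stress-induced repressor, was 6.74 and 5.50 FPKM in the UM-UC-3 sh-LNMAT1 libraries and 1.00 and 1.02 in those of 5637, and the small MAF protein gene MAFF was 10.98 and 9.94 against 2.46 and 2.23. BATF3, a JUN partner, was 2.76 and 5.54 against 1.31 and 1.17 FPKM. None of the 8 was 2-fold different in the same direction with both hairpins in UM-UC-3, where 0.967% of all genes were higher and 0.346% lower.

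Of 21 other immediate early genes tested, 8 were lower and 5 higher in 5637, and 8 did not pass, beside 19.1% of all genes lower and 18.5% higher, with a median of -0.71. CTGF and CYR61, secreted matricellular proteins under serum response factor and YAP control, differed most. CTGF was 178 and 341 FPKM in the UM-UC-3 sh-LNMAT1 libraries and 3.76 and 2.83 in those of 5637 (-6.03, limma adjusted p 3.1e-04), and CYR61 was 305 and 534 against 19.2 and 14.9. KLF2, a zinc finger factor of quiescent cells, stood at 38.6 and 20.6 FPKM against 2.92 and 2.36. In the other direction, IER2 was 6.81 and 2.79 FPKM against 17.5 and 17.3. Under sh-NC in UM-UC-3 IER2 was 12.4 FPKM, nearer to the 5637 pair but still below both. IER5L was 4.16 and 2.30 FPKM against 10.1 and 12.8, and the serum-induced kinase gene SGK1 0.762 and 0.794 against 4.06 and 4.33. The list therefore did not move one way, and IER2 and IER3 both stood higher in 5637 while JUN and EGR1 stood lower.

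Some low immediate early genes, singled out after their values were seen, were high in the libraries where FOSB was high. The orphan nuclear receptor gene NR4A1 was 0.142, 1.55 and 0.514 FPKM in UM-UC-3 under sh-NC and the first and the second hairpin, 1.57 in the library labelled 5637 sh-NC, and 0.625 and 0.495 with the hairpins in 5637. Its relative NR4A3 was 0.0709, 1.22 and 0.354 FPKM in the same UM-UC-3 order and 1.57 in the library labelled 5637 sh-NC, against 0.0361 and 0.0129 in the 5637 sh-LNMAT1 libraries. With NR4A2, EGR3, FOS and FOSB, these genes had their highest pair of levels in UM-UC-3 sh-LNMAT1#1 and the library labelled 5637 sh-NC. EGR2 and EGR4, as low, went otherwise and were highest in the 5637 sh-LNMAT1 pair, at 0.0920 and 0.137 FPKM for EGR2 and 0.101 and 0.130 for EGR4. TRIB1, a pseudokinase gene also named for this count, had 3.51 FPKM under sh-NC and 14.0 and 8.75 under the hairpins in UM-UC-3, and was the 1 of the 21 with at least 2-fold higher levels with both hairpins, beside 0.967% of all genes.

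Feedback genes of the MAP kinases went several ways, and DUSP1 and DUSP6 were high in those same libraries. DUSP1, a phosphatase that inactivates p38, JNK and ERK in the nucleus, had 33.1 FPKM under sh-NC, 165 under sh-LNMAT1#1 and 62.8 under sh-LNMAT1#2 in UM-UC-3, 145 in the library labelled 5637 sh-NC, and 10.2 and 15.2 in the 5637 sh-LNMAT1 libraries. DUSP6, an ERK phosphatase of the cytoplasm named after its values were seen, was 14.2, 39.7 and 9.92 FPKM in the UM-UC-3 libraries and 34.8 in the library labelled 5637 sh-NC. DUSP5, its nuclear counterpart, had 38.5 FPKM under sh-NC in UM-UC-3 against 106 and 99.2 under the hairpins, and was the single feedback gene of 14 with at least 2-fold higher levels with both, beside 0.967% of all genes. Others, also named after their values were seen, went otherwise: DUSP4 was highest in the 5637 sh-LNMAT1 pair, at 25.2 and 33.6 FPKM, and SPRED2 under sh-NC in UM-UC-3, at 12.4. Between the lines, 4 of the 14 were lower in 5637 and 1 higher, with a median of -0.46. The higher one was DUSP10, a JNK and p38 phosphatase, at 0.431 and 0.480 FPKM in the UM-UC-3 sh-LNMAT1 libraries and 6.12 and 10.8 in those of 5637, and SPRY4, an inhibitor of receptor signals, was 8.94 and 4.73 against 1.203 and 1.33.

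**Figure D4:**
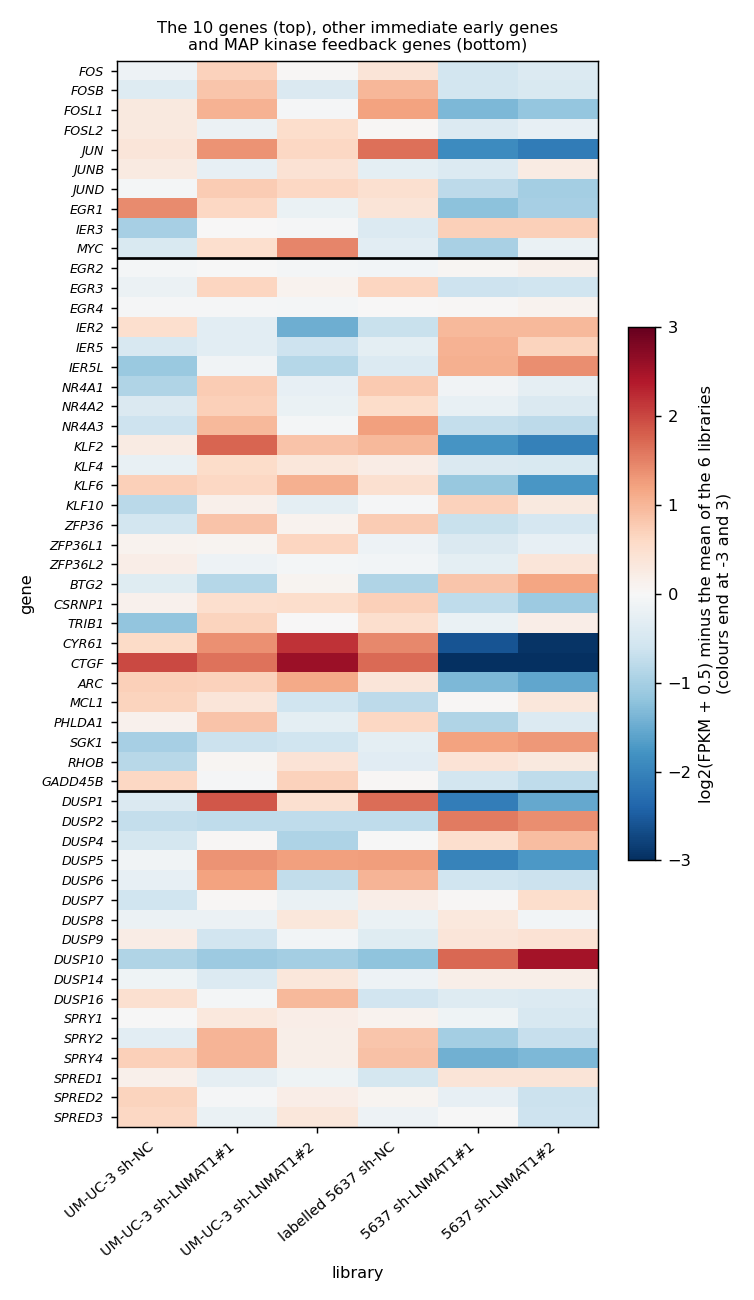
Level of the 10 genes, of other immediate early genes and of MAP kinase feedback genes, as log2(FPKM + 0.5) minus the mean of the 6 libraries, 1 column per library. FOSB, NR4A3, DUSP1 and DUSP6 were high under sh-LNMAT1#1 in UM-UC-3 and in the library labelled 5637 sh-NC, and CTGF, CYR61 and JUN were low in both 5637 sh-LNMAT1 libraries.

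The kinases upstream were divided. In the ERK pathway 4 of 11 genes were higher in 5637 and 3 lower, with a median of 0.31: the kinase gene ARAF was 4.51 and 5.70 FPKM in the UM-UC-3 sh-LNMAT1 libraries against 17.6 and 17.7, and BRAF 7.88 and 9.13 against 3.30 and 3.47. HRAS was higher and NRAS was lower in 5637, with log2 differences of 1.53 and -0.77. Of 9 JNK and p38 pathway genes, 1 was higher and 3 were lower, with a median of -0.04. The p38 delta gene MAPK13 was 0.967 and 0.452 FPKM against 6.37 and 6.95, whereas p38 beta, MAPK11, was 11.3 and 6.62 against 1.42 and 0.842. MAP2K3, a p38 kinase, and MAPK8, which encodes JNK1, were lower in 5637, by log2 differences of -1.45 and -0.68.

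Among 5 tested genes of serum response factor and its cofactors, SRF and ELK3 were lower and ELK1 higher in 5637. SRF was 34.6 and 43.0 FPKM in the UM-UC-3 sh-LNMAT1 libraries and 17.6 and 17.1 in those of 5637, ELK3 was 62.5 and 57.3 against 7.87 and 13.2, and ELK1 was 9.01 and 8.04 against 18.8 and 15.3. The EGR corepressors NAB1 and NAB2 did not pass. NAB2, itself induced by EGR1, had 4.67 FPKM under sh-NC and 12.2 and 5.38 under the hairpins in UM-UC-3, and 11.02 in the library labelled 5637 sh-NC, which is not the order of EGR1.

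Genes known as AP-1 targets were as many higher in 5637 as lower, 6 and 6 of 19, with a median of -0.04. MMP9, a matrix protease gene, was 2.08 and 2.80 FPKM in the UM-UC-3 sh-LNMAT1 libraries against 0.0206 and a listed 0, and the chemokine gene CCL2 was 3.36 and 6.78 against 0.0578 and a listed 0. The keratin gene KRT6A was 0.0226 and 0.0330 FPKM in UM-UC-3 and 26.3 and 54.4 in 5637, the EGFR ligand gene AREG 0.856 and 0.178 against 60.7 and 56.7, and the cornified envelope gene SPRR2A, listed at 0 in UM-UC-3, was 3.25 and 46.1. As background, KRT6A and SPRR2A belong to squamous differentiation. In UM-UC-3, 1 of the 19 was at least 2-fold higher with both hairpins (IL11), beside 0.967% of all genes, and 2 were lower (CCL2 and MMP9), beside 0.346%.

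MYC targets and MYC partners each held genes called in either direction. Of 18 MYC targets, 7 were lower and 2 higher in 5637, beside 19.1% and 18.5% of all genes, with a median of -0.80. Against all 3 UM-UC-3 libraries, 13 of the 18 were lower without overlap and 2 higher, beside 34.5% and 31.4% of all genes. The polyamine enzyme gene ODC1 was 135 and 108 FPKM in the UM-UC-3 sh-LNMAT1 libraries against 28.1 and 29.9, and the ribosome assembly genes RRP9 and RRP12 were lower by log2 differences of -1.68 and -1.57. LDHA and the transferrin receptor gene TFRC were higher, with differences of 1.28 and 0.81. LDHA overlapped between the lines once UM-UC-3 sh-NC was counted, at 72.5 FPKM there and 74.6 and 52.4 in the 5637 sh-LNMAT1 pair. Within UM-UC-3, where MYC was highest with sh-LNMAT1#2, the median difference of the 18 from sh-NC was -0.10 with sh-LNMAT1#1 and 0.30 with sh-LNMAT1#2, beside 0.00 and 0.01 for all genes. With both hairpins there, 1 of the 18 was at least 2-fold higher (NOLC1), beside 0.967% of all genes. A further 1 was lower (LDHA), beside 0.346%. Among 9 MYC partners tested, MNT, MXD1 and MXI1, which compete with MYC for MAX, were lower in 5637, MLX and MGA were higher, and MAX itself was not called.

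**Figure D5:**
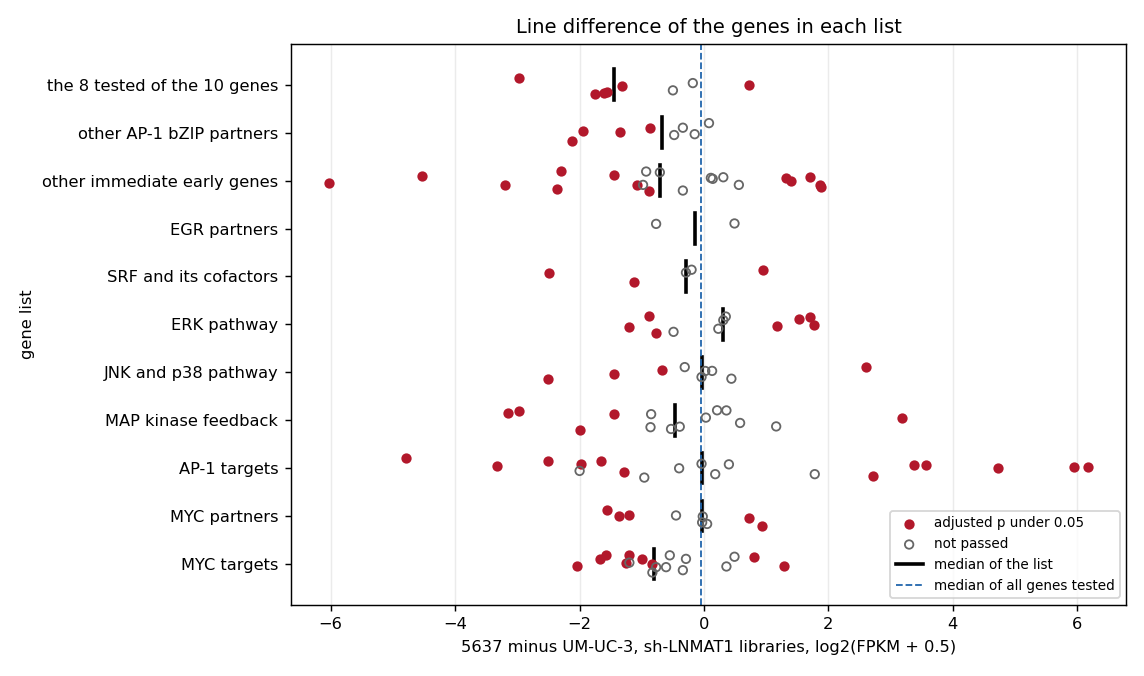
Difference between 5637 and UM-UC-3 over the sh-LNMAT1 libraries for every tested gene of each list, in log2(FPKM + 0.5), filled where the limma adjusted p was under 0.05, with the list median as a bar and the median of all 12716 genes as a dashed line. The 8 tested of the 10 genes had a median of -1.44 and the AP-1 targets -0.04, against -0.05 for all genes.

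Over the 6 libraries, the genes with the most similar pattern among 6016 that averaged 5 FPKM or more and had a symbol other than a clone name were named by Pearson r, as a description that shares the split between the lines. The r include the library labelled 5637 sh-NC, and none is given over the 5 others, which are too few. For JUN they were PRDX5, ENTPD4 and the pseudogene RPL13AP25, each with r = 0.999. FOSL1 was followed most closely by PCNP (0.998), RPS4X and TCEB1, FOSL2 by TMX2 (0.994), NOP56 and ORC5, and JUND by RRAGC (0.995), WBP4 and SOX12. Nearest to EGR1 were ZC3H7A (0.990), VKORC1 and ELOVL5, and to IER3 ATXN7L3B (0.994), TMEM184B and FOXK2. Near JUNB were MARS2 (0.967) and ARMC1, and MYC had THAP4 (0.990), MEMO1P1 and SIAH2. None of the genes named here was among the 10 or on their pathway lists apart from NOP56, which was listed as a MYC target and went with FOSL2.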

How the data were processed

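The authors deposited FPKM per gene for the 6 libraries in 1 table of 50869 rows, made from stranded mRNA libraries, and the submitters' processing notes name HISAT2 and hg38. The counting program and the annotation are not given in the sources used here. Left out were 2 rows that lacked values or an Ensembl identifier. No further per-sample columns were present. Each hairpin had 1 library per line and no repeat culture is described, so p-values measure only the spread between these samples, that between cultures of different hairpins included, and part of it may be technical. Depth was read from 8503 single-exon genes of GENCODE release 29, where at least 99.93% of values under 50 fragments came out whole within 0.05.

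The 12716 genes that averaged 1 FPKM or more over the 6 libraries were tested with limma 3.58.1 (lmFit, and eBayes with a trend) in R 4.3.3 on log2(FPKM + 0.5), with Benjamini-Hochberg adjustment over all of them and a limit of 0.05. The pooled comparison had cell line as a covariate. Single libraries were compared without a test. Tables were made with Python 3.11.15, numpy 2.4.6, pandas 2.3.3, scipy 1.17.1 and matplotlib 3.10.9. The fits were tested on simulated data. Named were the 10 genes, up to 3 of each list with the largest positive and up to 3 with the largest negative line difference that passed, and, for each of the 8 tested genes, up to 3 of the most similar in pattern that averaged 5 FPKM or more and had no clone name. The 10 genes and the lists were chosen with earlier results of these data known. Promoters were RefSeq sequences. TGFB1 was not analysed here. Alternatives changed the pseudocount, scaling, filter, trend, covariates, fold limit, hairpins and libraries.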

Additional observations from a re-analysis of the deposited data

Results flagged for a closer look

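The product term of line and knockdown passed the limma test for JUN (-4.28), FOSL1 (-2.68) and JUND (-2.14), in units of log2(FPKM + 0.5), 5637 minus UM-UC-3. Each control in it is 1 library, and a differing response to the hairpins cannot be told apart from the difference between the lines. With no filter on low genes JUN and FOSL1 did not pass, nor did FOSL1 with a filter of 5 FPKM. For FOS both hairpins gave higher levels than sh-NC in UM-UC-3 and lower levels than the library labelled 5637 sh-NC in 5637, and the mean differences were -1.38 apart, which was not tested because FOS was under 1 FPKM on average. All 4 values use the library labelled 5637 sh-NC, whose JUN level of 592 FPKM stood above every UM-UC-3 library.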

How the results depend on the processing

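Where direction or call changed, the cause was not tested unless the setting itself shows it. With no filter more genes are tested, and with a filter of 5 FPKM fewer. In the line difference, the filter of 5 FPKM left 931 genes higher and 1260 lower in 5637, and no filter left 2 of the 10 genes lower. With all 6 libraries grouped by their labels, which adds the library labelled 5637 sh-NC to 5637, 1 gene was higher and 1 lower, and 0 of the 10 were higher and 0 lower. Leaving out each of the 4 libraries in turn gave 781 to 2600 genes higher and 464 to 2572 lower, with 0 to 1 of the 10 higher and 0 to 6 lower, and the JUNB difference ran from -0.52 to 0.17. A lone library was then assumed to vary like the other line.

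In the pooled comparison, leaving out each of the 6 libraries gave 0 to 2028 genes higher and 0 to 1919 lower, with 0 to 1 of the 10 higher and 0 to 4 lower, the highest counts without UM-UC-3 sh-NC. The differences ran from -2.46 to 0.22 for FOSL1, -3.65 to 0.63 for JUN, -1.38 to 0.76 for JUND, -0.18 to 0.21 for JUNB and -0.26 to 1.44 for MYC. JUNB was -0.02 with 75th-percentile scaling. For the product term, the filter of 5 FPKM left 420 genes positive and 469 negative, and no filter left 1 of the 10 negative.

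In UM-UC-3, 199 genes were higher with a pseudocount of 0.1, and 78 were higher and 27 lower with a pseudocount of 1. The filter of 5 FPKM left 74 higher and 20 lower, a 1.5-fold limit gave 514 and 286, and a 5-fold limit 2 and 2. For sh-LNMAT1#1 alone, 658 were higher and 632 lower, and for sh-LNMAT1#2 alone 237 and 169. Of the 10, 3 were higher and 1 lower at 1.5-fold, and 1 higher and 1 lower with sh-LNMAT1#2 alone. In 5637, always against the library labelled sh-NC, the filter of 5 FPKM left 831 higher and 946 lower, 1.5-fold gave 3168 and 3187, and 5-fold gave 692 and 404, with 0 of the 10 higher and 2 lower.

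Of the values of single genes under the alternatives, 79 of the line difference, 91 of the pooled comparison and 45 of the product term kept their direction and their side of the threshold. In the line difference 22 lost the call, 1 gained it and 2 changed sign, in the pooled comparison 5 gained it and 8 changed sign, and for the product term 3 lost it. FOS and FOSB are limited by depth. With the hairpin as a covariate, which pairs the lines by hairpin, the line difference of JUN was -2.98 (adjusted p 5.0e-05 by limma) and that of MYC -1.56 (0.0012).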
